A study of Mus musculus with 12 samples.

Results

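The forkhead (Fox) genes encode transcription factors that share one DNA-binding fold, the forkhead or winged-helix domain. They were taken as every gene symbol that reads Fox, a letter from a to s and a number, which gave 44 of the 54352 symbols in the table. They were followed in RNA of primary fibroblasts of the adventitia, the outermost coat of an artery, grown out of pieces of the ascending or the descending aorta of wild-type C57Bl/6 mice. The 4 groups were descending control, descending TGFβ, ascending control and ascending TGFβ, with 3 libraries each. Control cultures received the solute and the others mouse TGFβ at 10 ng/mL, both for 48 hours. The labels give an age of 14 weeks and batch 1 for all 12 libraries. The comparisons address which Fox genes differ between the 2 sites and which respond to TGFβ at each site. The cells were passaged outgrowths from tissue pieces, and nothing states whether the replicates came from separate animals, so that p-values measure the spread between these cultures, which may be technical.

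Fox proteins bind a short common DNA core and fall into lettered subfamilies. FoxO proteins are held in the cytoplasm when insulin and growth factor signals activate Akt, and in the nucleus they favour cell cycle arrest and stress resistance. FoxM1 drives genes of the G2 and M phases of the cell cycle. FoxC, FoxD and FoxF proteins act in the mesoderm and neural crest of the embryo, FoxC1 and FoxC2 also in the development of the aortic arch, and FoxP proteins are mainly repressors. TGFβ turns fibroblasts towards a contractile, matrix-producing state through Smad proteins, some of which work together with Fox proteins on DNA.

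Each library held 16250100 to 23892900 counts, and 0.0795 to 0.0976% of them lay on Fox genes. The values below are normalized CPM, reads per 1e+06 counted reads after TMM scaling, and a count of 3 or fewer was taken as the floor of a library (0.117 to 0.207 normalized CPM). Floors cover counting error only. The descending control replicate 3 stood apart from the other 11 libraries. It had 11.02% of its counts on mitochondrial genes against 0.703 to 1.03%, and a count on 13031 genes against 19337 to 20931. Its mean Pearson correlation with its group, across genes, was 0.874, against 0.932 or more in the others. It had a count on 18 Fox genes against 26 to 32. Results that rest on it are therefore given with and without it. All 10 fibroblast markers were detected in each group. With TGFβ 3 of them rose and 7 fell in ascending fibroblasts. In descending ones 2 rose and 4 fell, or 3 rose and 7 fell without replicate 3 of the controls. Of the 8 endothelial markers, 2 were at 0 in every library and 3 or 4 were above the floor in a group. Their sum was 23.9 to 26.3 normalized CPM in descending control and 12.05 to 14.97 in descending TGFβ libraries, against 24.3 to 27.1 in ascending control and 8.25 to 9.99 with TGFβ. Of the 3 that were tested at each site, Erg rose and Tek fell with TGFβ at both, and Kdr rose in descending fibroblasts only without replicate 3 of the controls, so the sum does not stand for every member. All 8 macrophage markers fell with TGFβ in ascending fibroblasts, and in descending ones none of 7 tested passed, or 5 of 8 without replicate 3 of the controls. The summed level of the 8 smooth muscle markers was 2529 to 2570 normalized CPM in descending control and 8048 to 8464 in descending TGFβ libraries, against 1595 to 1708 in ascending control and 5144 to 5232 with TGFβ. Of these 8, 6 rose and 2 fell in ascending fibroblasts. In descending ones 3 rose and 0 fell, or 7 rose and 1 fell without replicate 3 of the controls. Over all genes 55.8%, 8.07% and 52.9% were called in these fits, in that order. The part of these marker lists in the TGFβ results was not tested. In bulk RNA, fewer cells of a type and less RNA per cell cannot be told apart.

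Of the 44 Fox genes, 25 passed the filter on low counts over the 4 groups, as did 14637 of all genes. They included Foxc1, Foxc2, Foxd1, Foxd2, Foxd3, Foxf1, Foxf2, Foxj2, Foxj3, Foxk1, Foxk2, Foxl1, Foxm1, Foxn2, Foxn3, Foxo1, Foxo3, Foxo4, Foxo6, Foxp1, Foxp2, Foxp4, Foxq1 and Foxs1. The other 19 did not pass. Foxb1, Foxb2, Foxd4, Foxh1, Foxi1, Foxi3 and Foxr1, 7 in all, had no count in any library. The remaining 12 were at or near the floor. Summed over the 12 libraries, Foxa1 had 20 counts, Foxa2 and Foxp3 15 each, Foxj1 14, Foxe3 13, Foxn1 11, Foxl2 5 and Foxr2 4, while Foxa3, Foxe1, Foxi2 and Foxn4 had 1 each. Foxp3 marks regulatory T cells and Foxj1 drives genes of motile cilia, and neither exceeded 4 counts in a library. The 11 counts of Foxn1, the thymic epithelial factor, all lay in descending TGFβ libraries as 3, 4 and 4.

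Levels of different genes were compared per kb of annotated exon sequence. Foxs1, known from perivascular cells, was highest in descending TGFβ libraries with 36.1 ± 0.833 normalized CPM per kb (SD, n = 3), next to Foxc2 with 34.99 ± 0.740. These levels differed by about their SDs. In ascending TGFβ libraries Foxc2 led with 33.0 ± 0.660, followed by Foxk2 with 22.4 ± 0.877 and Foxs1 with 19.1 ± 0.935. In ascending control libraries Foxs1 had 16.5 ± 1.94 and Foxk2 16.2 ± 0.431, a gap within the SD. In descending control libraries Foxs1 had 25.6 ± 4.67 and Foxc2 17.1 ± 1.85 normalized CPM per kb. The FoxD genes and Foxf1, Foxl1, Foxo6 and Foxq1 were below 2 normalized CPM per kb in every group, as was Foxp2 with 1.00 to 1.66.

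Several of these genes are close paralogs, so it was asked whether their reads could be told apart. The longest identical stretches between the coding sequences of a pair, all on the coding strand and taken from GENCODE vM21 transcripts, are shown for 5 of the 10 pairs compared, since reads within them cannot be assigned to one gene.
Foxc1 and Foxc2, 53 bases: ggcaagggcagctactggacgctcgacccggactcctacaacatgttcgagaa
Foxf1 and Foxf2, 41 bases: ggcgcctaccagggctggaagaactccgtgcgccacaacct
Foxd1 and Foxd3, 38 bases: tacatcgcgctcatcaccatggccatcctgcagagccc
Foxo1 and Foxo3, 38 bases: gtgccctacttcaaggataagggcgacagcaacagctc
Foxp1 and Foxp4, 21 bases: tgcaagtggccaggctgtgag
The stretch of the FoxC pair lies at coding bases 439 to 491 of Foxc1 and 418 to 470 of Foxc2. Only 0.069% of the 50-base sequences in Foxc1 exons and 0.149% of those in Foxc2 exons recur in the other. The larger shares were with non-paralogous transcripts. Foxq1 shared 65.7% with A530084C06Rik, a gene on the opposite strand with no count in any library. Foxo1 shared 6.7% with the antisense gene Gm20402, which had no count. Foxp3 and Foxb1, which did not pass the filter, shared 23.1% and 12.5% with other genes. Among the other genes tested and described here, no share exceeded 2.59%. The strand setting of the counting is not stated in the sources used here, so the split of reads within both overlaps is uncertain.

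TGFβ changed Fox genes in both directions in ascending fibroblasts, and members of one subfamily often moved apart. Of the 24 Fox genes tested, 9 rose and 8 fell, which is 70.8% (edgeR's quasi-likelihood F-test, Benjamini-Hochberg adjusted p under 0.05 over all genes tested). Over all 13917 genes the share was 55.8%, with 28.2% higher and 27.6% lower. The median log2 fold change of the Fox genes was 0.05 and that of all genes was 0.00 (-0.00443). In size, the median absolute log2 fold change was 0.46 for the Fox genes and 0.28 for all genes. Values of control and TGFβ libraries did not overlap for 15 of the 24, 8 higher and 7 lower, against 61.3% of all genes, 31.3% higher and 30.1% lower. The genes that rose were Foxc2, Foxl1, Foxp1, Foxf2, Foxp4, Foxj3, Foxk2, Foxo1 and Foxs1. Those that fell included Foxo6, Foxo4, Foxf1, Foxj2, Foxp2, Foxo3 and Foxn3. Foxo6, counted here, passed the filter through the control group, so its call is no support. Foxc1, Foxd1, Foxd2, Foxd3, Foxk1, Foxm1 and Foxn2 did not pass the test.

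In descending fibroblasts the same comparison called 4 of 22 Fox genes, with 8.07% called over all genes, 3.59% higher and 4.48% lower. Foxp4, Foxc2 and Foxq1 rose and Foxm1 fell. Foxq1, at 0 in the controls, passed the filter through the TGFβ group alone, so its call is no support, and without it 3 of 21 were called. The groups of these 21 did not overlap for 11, against 43.5% of all genes, 24% higher and 19.5% lower. When any 1 of the 5 libraries other than the descending control replicate 3 was dropped, 1 or 2 Fox genes were called. The share over all genes fell too, to 1.49 to 3.38%. Without the descending control replicate 3 it called 15 of 22, 10 higher and 5 lower, or 68.2% against 52.9% over all genes, 26.6% higher and 26.3% lower and, leaving out Foxq1, 14 of 21 were called, or 66.7%. The genes added by leaving it out included Foxp1, Foxl1, Foxf2, Foxo1, Foxj3, Foxk2 and Foxs1 on the higher side and Foxo4, Foxo3 and Foxn3 on the lower side. For Foxj3 and Foxo1 that library also turned the sign, with log2 fold changes of -0.41 and -0.03 in its presence and 0.44 and 0.46 in its absence.

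**Figure D1:**
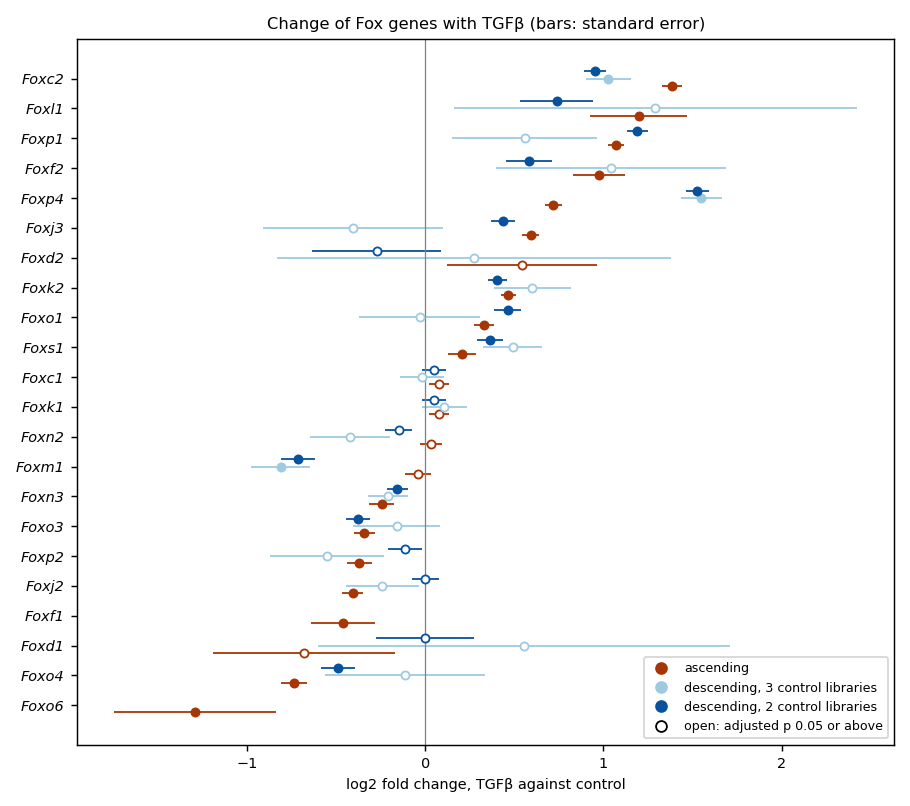
Log2 fold change with TGFβ (x axis) of Fox genes tested in ascending fibroblasts (y axis, ordered by that change; Foxd3 and Foxq1, at 0 in at least 1 group, are not drawn). Points are estimates and bars standard errors for ascending fibroblasts and for descending fibroblasts with all 3 and with 2 control libraries; open points had an adjusted p of 0.05 or above. Foxc2 lies at 1.38 in ascending and 1.03 in descending fibroblasts, and the bars of the fit with 3 descending control libraries are the longest.

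Of the FoxC pair, Foxc2 responded and Foxc1 did not pass the test. Both act in vessel and heart outflow development. Foxc2 (chr8:121116171-121118895 of GRCm38, 1 exon) had 50.9, 47.8 and 41.1 normalized CPM in descending control and 93.2, 95.8 and 97.1 in descending TGFβ libraries. It had 36.7, 34.8 and 31.2 in ascending control libraries and 90.0, 88.0 and 91.6 in those with TGFβ. At both sites every TGFβ library lay above every control library. The log2 fold change was 1.38 (SE 0.06, adjusted p = 1.91e-12, edgeR) in ascending and 1.03 (SE 0.13, adjusted p = 0.00838) in descending fibroblasts. In the latter the call was lost without control replicate 2 or any one TGFβ replicate (log2 fold change 1.02 to 1.05, adjusted p = 0.0504 to 0.0775). Foxc1 (chr13:31806633-31812476) had 52.2 ± 3.29, 51.8 ± 3.82, 44.4 ± 1.34 and 47.1 ± 3.44 normalized CPM (SD, n = 3) in descending control, descending TGFβ, ascending control and ascending TGFβ libraries. Its TGFβ change in ascending fibroblasts was 0.08 on the log2 scale, with a 95% interval of -0.04 to 0.19. Per kb, Foxc2 made up 62.3 ± 1.40% of the FoxC level in ascending control libraries and 80.4 ± 0.886% in those with TGFβ. In the descending libraries that share was 65.6 ± 3.88% in control and 79.8 ± 0.858% with TGFβ.

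Foxc2 lies between 2 other Fox genes on chromosome 8, 28026 bases from Foxf1 and 9044 bases from Foxl1. Foxl1, a mesenchymal factor, had 2.22, 1.10 and 1.17 normalized CPM in ascending control libraries and 2.72, 4.07 and 3.65 in those with TGFβ. These groups did not overlap, and the log2 fold change was 1.198 (SE 0.27, adjusted p = 0.00128, edgeR). In descending fibroblasts its change was 0.74 (adjusted p = 0.00323) without the descending control replicate 3, which had no count of it, and 1.29 (SE 1.13, adjusted p = 0.541) with it. Foxf1, on the other side, fell in ascending fibroblasts. The 3 neighbours thus differed in direction.

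All 3 FoxP genes that passed changed with TGFβ in ascending fibroblasts, 2 upward and 1 downward. FoxP proteins bind DNA as dimers and repress transcription. Foxp1 (chr6:98925338-99522721) had 63.5, 68.2 and 69.7 normalized CPM in ascending control libraries and 139, 143 and 142 in those with TGFβ, with no overlap. Its log2 fold change was 1.07 (SE 0.04, adjusted p = 1.72e-12, edgeR). In descending control it had 49.3, 48.5 and, in replicate 3, 127 normalized CPM, against 113, 107 and 114 with TGFβ. That library alone lay above the TGFβ libraries, and the change was 0.56 (adjusted p = 0.46) with it and 1.19 (SE 0.06, adjusted p = 1.06e-16) without it. Foxp2 fell by 0.37 on the log2 scale in ascending fibroblasts (adjusted p = 0.00028), from 27.2 ± 0.80 to 21.1 ± 1.89 normalized CPM. In descending fibroblasts it did not pass the test with or without replicate 3.

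Foxp4 (chr17:47867133-47924645) rose at both sites. It had 37.4, 35.4 and 34.0 normalized CPM in descending control and 108, 109 and 98.6 in descending TGFβ libraries. In ascending fibroblasts it had 44.3, 43.7 and 44.6 in control and 75.3, 74.7 and 69.2 with TGFβ. The ascending controls lay above the descending ones, while with TGFβ the order was the other way round, and no 2 of the 4 groups overlapped. The log2 fold change was 1.55 (SE 0.11, adjusted p = 0.00188, edgeR) in descending and 0.72 (SE 0.05, adjusted p = 1.85e-09) in ascending fibroblasts. The interaction of site and treatment, fitted over the 12 libraries, was -0.83 (SE 0.11, adjusted p = 0.00927), a smaller rise in ascending fibroblasts. Foxp4 was the single Fox gene of 25 called for the interaction, with 0.806% called over all genes, 0.321% more positive and 0.485% more negative in ascending fibroblasts. The value was -0.80 (adjusted p = 8.21e-08) without the descending control replicate 3. Without ascending TGFβ replicate 3 it was -0.80 with an adjusted p of 0.0509, and no Fox gene was called (2 at an unadjusted p under 0.05).

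Without the descending control replicate 3, the interaction was called for 4 of 25 Fox genes, with 13.5% called over all genes, 6.07% more positive and 7.4% more negative. Beside Foxp4 these were Foxj2 with -0.40 (SE 0.09, adjusted p = 0.003, edgeR), Foxm1 with 0.68 (SE 0.12, adjusted p = 0.000304) and Foxc2 with 0.44 (SE 0.08, adjusted p = 0.000351). The change with TGFβ was thus more positive in ascending fibroblasts for Foxm1 and Foxc2 and more negative for Foxp4 and Foxj2.

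**Figure D2:**
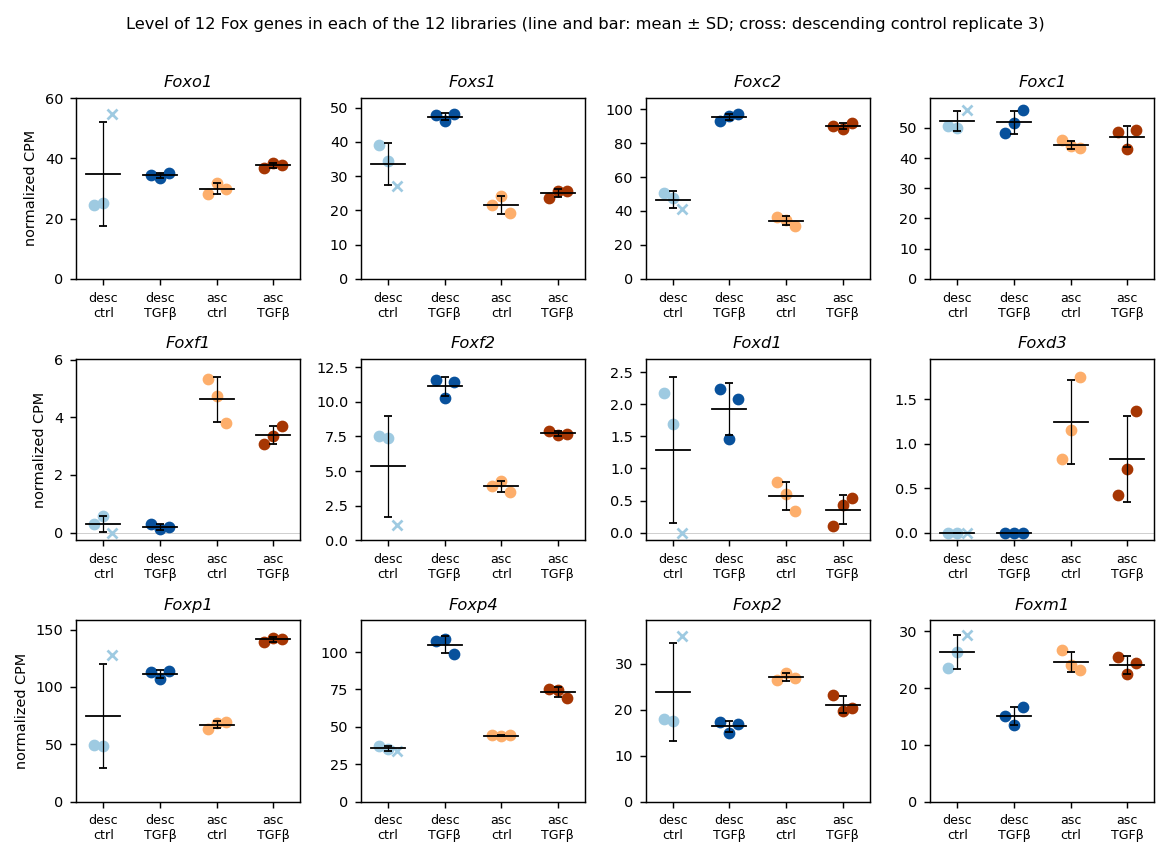
Normalized CPM (y axis, from 0) of 12 Fox genes in each of the 12 libraries (points) by site and treatment (x axis; desc, descending; asc, ascending; ctrl, control), with the mean and SD of each group (lines and bars) and descending control replicate 3 as a cross. Foxp4 stands at 98.6 to 109 in descending TGFβ libraries above all others, and Foxd3 is at 0 in all 6 descending libraries.

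The FoxO genes, whose proteins restrain growth, split as well. In ascending fibroblasts Foxo1 rose by 0.33 on the log2 scale (SE 0.06, adjusted p = 0.000115, edgeR), from 29.9 ± 1.80 to 37.7 ± 0.771 normalized CPM. Foxo3 fell by 0.34 (SE 0.06, adjusted p = 0.000124), from 70.6 ± 5.33 to 55.8 ± 3.31. Foxo4 fell by 0.74 (SE 0.07, adjusted p = 1.78e-07), with 25.3, 25.8 and 22.9 normalized CPM in control and 14.5, 14.95 and 15.1 with TGFβ. These 3 genes had no overlap between the groups. Foxo6, which lacks the shuttling behaviour of the others, was low, with 16, 26 and 14 counts in control and 3, 11 and 8 with TGFβ, and it fell by 1.29 (SE 0.45, adjusted p = 0.0236). The call of Foxo6 was lost without ascending control replicate 2 or TGFβ replicate 1 or 3 (adjusted p = 0.0588 to 0.143).

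In descending fibroblasts the 3 abundant FoxO genes passed the test without replicate 3 of the controls, and none with it. Without it Foxo1 rose by 0.46 (adjusted p = 7.82e-06, edgeR), and Foxo3 fell by 0.37 (adjusted p = 2.37e-05) and Foxo4 by 0.49 (adjusted p = 7.4e-05). With it their adjusted p were 0.967, 0.738 and 0.903. That library had 54.9 normalized CPM of Foxo1 against 24.7 and 25.3 in the other descending controls, and 6.69 of Foxo4 against 23.8 and 20.9. It was the highest of all 12 libraries for Foxo1 and the lowest for Foxo4. Per kb the 4 genes summed to 20.2 ± 1.21 normalized CPM in ascending control libraries and 16.1 ± 0.590 in those with TGFβ, and Foxo1 went from 17.1 ± 0.461 to 27.02 ± 0.541% of that sum.

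**Figure D3:**
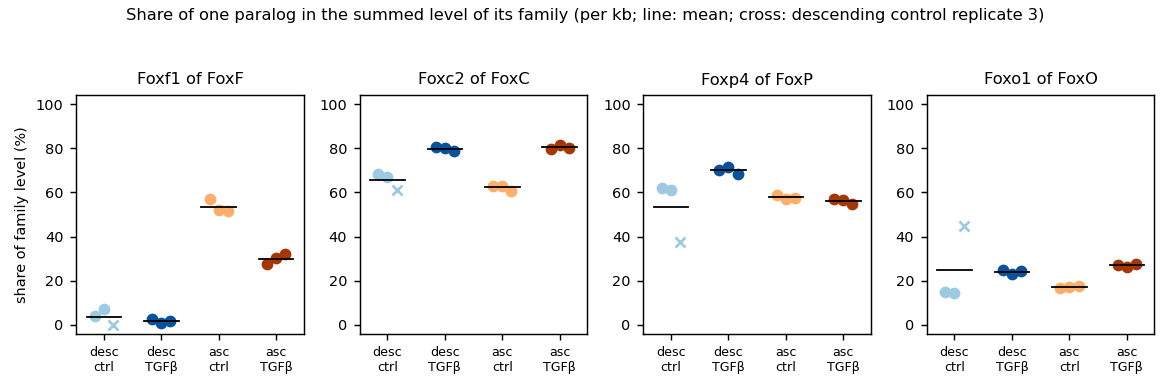
Share of one paralog in the summed level of its subfamily, in percent of normalized CPM per kb (y axis), in each library (points; cross, descending control replicate 3; line, mean) by site and treatment (x axis). The families are Foxf1 and Foxf2, Foxc1 and Foxc2, Foxp1, Foxp2 and Foxp4, and Foxo1, Foxo3, Foxo4 and Foxo6. Foxf1 makes up 51.5 to 57.2% of FoxF in ascending control libraries and at most 6.96% in any descending library.

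The genes around the FoxO proteins were described from lists. Of 22 listed genes of the insulin, PI3K and Akt route and other regulators that act on FoxO proteins, 14 rose and 4 fell with TGFβ in ascending fibroblasts, with a median log2 fold change of 0.20. That is 81.8% called, against 55.8% over all genes. Igf1, the growth factor at the head of this route, rose by 2.88 (SE 0.14), and Pik3cb, a catalytic subunit of PI3K, by 1.63 (SE 0.06). Pik3r1, the regulatory subunit, fell by 1.10 on the log2 scale (SE 0.07). In descending fibroblasts 2 rose and 1 fell, namely Igf1 with 2.23, Pik3cb with 1.47 and Pik3r1 with -2.51, and without replicate 3 of the controls 9 rose and 2 fell. These are 13.6% and 50% called, against 8.07% and 52.9% over all genes. Of 30 tested genes listed as FoxO targets, 7 rose and 16 fell in ascending fibroblasts, with a median of -0.28, or 76.7% called against the 55.8% over all genes. Among those that fell were the cyclins Ccnd1 (-1.25) and Ccnd2 (-0.53), which FoxO proteins repress, and Txnip (-0.93), which they activate. Among those that rose were Irs2 (0.72), Pdk4 (0.47) and Eif4ebp1 (0.31). Of 31 tested in descending fibroblasts 2 rose and 4 fell, and 8 rose and 16 fell without replicate 3, or 19.4% and 77.4% against 8.07% and 52.9% over all genes. Cdkn1a, the cell cycle inhibitor p21, rose there by 0.47 (SE 0.10, adjusted p = 0.0442, edgeR). In ascending fibroblasts its log2 fold change was 0.04 (adjusted p = 0.371). The difference between the sites did not pass the test for Cdkn1a (interaction -0.44, adjusted p = 0.0692), and it did without replicate 3 (-0.42, adjusted p = 6.78e-06).

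Foxj3 rose and Foxj2 fell with TGFβ in ascending fibroblasts, from 43.0 ± 1.33 to 65.1 ± 1.87 and from 37.0 ± 2.00 to 28.1 ± 1.10 normalized CPM. The log2 fold changes were 0.59 (SE 0.05, adjusted p = 1.81e-08, edgeR) and -0.41 (SE 0.06, adjusted p = 1.62e-05). In descending fibroblasts without replicate 3 of the controls Foxj3 rose by 0.44 (adjusted p = 3.5e-06). The value of Foxj2 there was 0.00 (0.00143, 95% interval -0.143 to 0.146). The library left out had 147 normalized CPM of Foxj3 against 42.3 and 46.0 in the other descending controls, the highest of all 12 libraries. Foxk2, a factor of metabolic control, rose from 85.1 ± 2.27 to 118 ± 4.61 normalized CPM in ascending fibroblasts (log2 fold change 0.47, adjusted p = 7.84e-08). Foxk1 did not pass there (0.08, 95% interval -0.03 to 0.19), and neither did it in descending fibroblasts. Foxn3 fell by 0.24 (SE 0.07, adjusted p = 0.00785) in ascending fibroblasts, with overlapping groups and not without TGFβ replicate 2 (adjusted p = 0.0579), and Foxn2 did not pass (0.03, 95% interval -0.09 to 0.15).

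Between the sites, the largest differences lay in genes of low level, and some paralogs took opposite sides. The FoxC pair went the same way among controls, both lower in ascending fibroblasts without overlap. The means there were 44.4 against 52.2 normalized CPM for Foxc1 and 34.3 against 46.6 for Foxc2. With TGFβ Foxc2 was lower without overlap, and the groups overlapped for Foxc1. Among TGFβ libraries 13 of 23 Fox genes were called, 5 higher and 8 lower in ascending fibroblasts, which is 56.5% against 36.3% over all genes, of which 18.1% were higher and 18.2% lower. Foxf1, Foxm1, Foxp2, Foxp1 and Foxj3 were higher in ascending, and those higher in descending fibroblasts included Foxd1, Foxq1, Foxs1, Foxf2, Foxp4, Foxj2 and Foxk1. Foxf1 and Foxq1 had fewer than 10 counts in every library of one group and passed the filter through the other, so their calls are no support. Of the other 21 genes, 11 were called, or 52.4%, and the groups did not overlap for 11, against 46.1% of all genes, 23% in each direction. Foxd1 is counted there, though of its ascending libraries only that with 11 counts reached 10. It passed the filter through the descending group, so its call is no support either. Among control libraries 1 of 24 was called, with 2.65% called over all genes, 1.19% higher and 1.47% lower. Foxd3 and Foxo6 passed the filter there through the ascending group alone. Of the other 22 genes, the groups did not overlap for 7, against 35.3% of all genes, 19.2% higher and 16% lower. Without the descending control replicate 3, 15 of 24 were called, 7 higher and 8 lower in ascending fibroblasts, or 62.5% against 31.6% over all genes, 16.4% higher and 15.2% lower. Leaving out Foxd3 and Foxo6, 13 of 22 were called, or 59.1%. Foxf1, still among these 22, likewise passed the filter through the ascending group in both fits, so its call is no support. Foxj3 and Foxk1, with differences of 0.13 and -0.16 among TGFβ libraries, lost their calls without any one of 4 and of 3 libraries (adjusted p up to 0.185 and 0.234). These were descending replicates 1 and 3 and ascending replicates 2 and 3 for Foxj3, and descending replicates 2 and 3 and ascending replicate 1 for Foxk1.

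**Figure D4:**
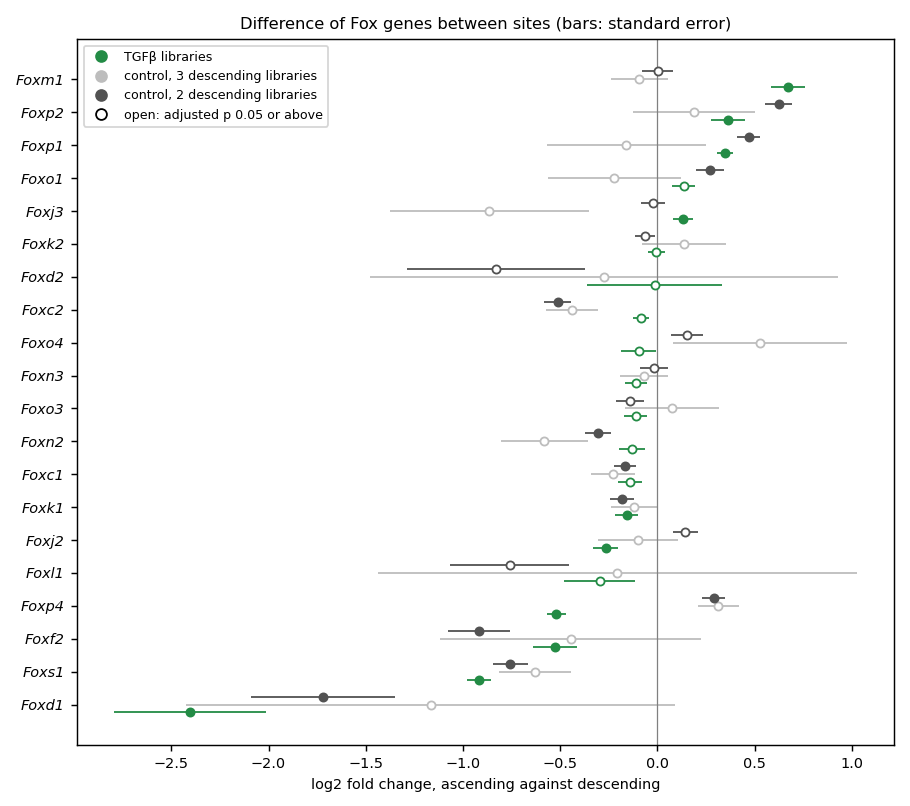
Log2 fold change of ascending against descending fibroblasts (x axis) of Fox genes tested among TGFβ libraries (y axis, ordered by that difference; Foxf1 and Foxq1 are not drawn), with standard errors as bars, for TGFβ libraries and for control libraries with 3 and with 2 descending libraries. Filled points had an adjusted p under 0.05. Foxd1, which passed the filter there through the descending group, lies at -2.40 among TGFβ libraries. Foxs1 lies below 0 in each of its fits (-0.92, -0.63 and -0.76).

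Markers of other cell types were summed for each site. The 4 adipocyte markers summed to 22.4 to 30.6 normalized CPM in descending control and 9.74 to 18.5 in descending TGFβ libraries, against 0.913 to 4.998 in ascending control and 0.0473 to 0.575 with TGFβ. Of the 3 that were tested, 1 was lower in ascending fibroblasts among controls and all 3 were without the descending replicate 3, as among TGFβ libraries (edgeR). The 8 macrophage markers summed to 28.9 to 53.02 and 15.2 to 28.5 normalized CPM in the descending control and TGFβ libraries, and to 59.5 to 388 and 31.9 to 46.3 in the ascending ones. None of the 8 was called by edgeR among controls (2 at an unadjusted p under 0.05), 5 were higher in ascending fibroblasts without the descending replicate 3, and 4 were among TGFβ libraries. The part of such cells in the site differences was not tested.

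Foxf1 and Foxf2, both factors of mesenchyme under Hedgehog signals, were on opposite sides. Foxf1 (chr8:121084386-121088144) had 8, 13 and 0 counts in descending control and 6, 2 and 4 in descending TGFβ libraries, against 123, 95 and 78 in ascending control and 59, 71 and 76 with TGFβ. The ascending libraries held at least 3.08 normalized CPM and the descending ones at most 0.564. The estimated log2 fold change was 4.02 (SE 0.35) among TGFβ libraries, with no test given, since Foxf1 passed the filter through the ascending group alone. Among controls it was 3.91 (SE 0.94), and 3.42 (SE 0.31) without the descending replicate 3, also with no test given. Of the descending controls only that with 13 counts reached 10, so Foxf1 passed the filter there too through the ascending group. With TGFβ, Foxf1 fell in ascending fibroblasts by 0.46 (SE 0.18, adjusted p = 0.0403, edgeR), a call lost without control replicate 1 or 2 or TGFβ replicate 1 or 2 (adjusted p = 0.0632 to 0.172). Foxf2 (chr13:31625816-31631403) had 7.51, 7.38 and 1.10 normalized CPM in descending control and 11.6, 10.3 and 11.4 in descending TGFβ libraries. It had 3.91, 4.30 and 3.51 in ascending control libraries and 7.89, 7.57 and 7.70 in those with TGFβ. Apart from descending control replicate 3, the descending libraries lay above the ascending ones of the same treatment. The site difference was -0.53 (SE 0.11, adjusted p = 0.000391) among TGFβ libraries, and -0.92 (adjusted p = 0.000501) among controls without that replicate against -0.45 (adjusted p = 0.76) with it. Foxf2 rose with TGFβ in ascending fibroblasts by 0.98 (SE 0.15, adjusted p = 2.39e-05).

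The long noncoding RNA Fendrr, transcribed away from the Foxf1 start, had no count in the 6 descending libraries, 9, 3 and 5 in ascending control libraries and 1, 3 and 2 in those with TGFβ. Of these 6 values 4 were at or under the floor. Of the 14 listed Hedgehog genes 8 were tested among TGFβ libraries, where 3 were higher and 4 lower in ascending fibroblasts, or 7 of 8 against 36.3% called over all genes. The coreceptors Cdon (0.995) and Boc (1.28) were higher, and the transcription factor Gli2 (-1.995) and the receptor and target Ptch1 (-0.36) were lower in ascending fibroblasts. With TGFβ in ascending fibroblasts 2 of 8 rose and 3 fell, Cdon with 0.98 and the coreceptor Gas1 with -1.98 being the first by p on each side, or 62.5% called against 55.8% over all genes. In descending fibroblasts these 2 were the genes called of 9 tested, with 1.26 and -2.88, where 8.07% of all genes were called. Without replicate 3 of the controls 3 rose and 4 fell of 10 tested, or 70% against 52.9% over all genes. The list of mesothelial and epithelial markers, 8 genes of which 2 or 3 were detected above the floor in a group, summed to 6.90 to 13.1 normalized CPM in descending control and 12.4 to 13.9 in descending TGFβ libraries, against 33.0 to 42.7 in ascending control and 19.7 to 26.6 with TGFβ. The mesothelial gene Upk3b held 29.0 to 37.1 normalized CPM in ascending control and at most 1.61 in descending control libraries, while the keratin gene Krt19 held 3.41 to 4.17 against 6.90 to 11.8. Wt1, a defining mesothelial factor, had 1 count in all and was at 0 in 3 of the 4 groups. The part of such cells in the Foxf1 difference was not tested.

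Within FoxD, Foxd3 was found in ascending and Foxd1 mainly in descending fibroblasts. Foxd3, a neural crest factor, had no count in any of the 6 descending libraries. It had 19, 23 and 36 counts in ascending control libraries and 8, 15 and 28 in those with TGFβ. Against the floor of 3 counts per library it was at least 6.01-fold higher in ascending control libraries and at least 5.11-fold higher in those with TGFβ. No test of this difference is given, since Foxd3 passed the filter among controls through the ascending group alone and did not pass it among TGFβ libraries. Sox10, the defining factor of Schwann cells, was likewise at 0 in all descending libraries and at 2.05 to 2.50 normalized CPM in ascending control libraries and 1.70 to 2.87 in those with TGFβ. Of the 5 genes of the Schwann cell list, which includes Foxd3, 3 were above the floor in each descending and 5 in each ascending group. Their sum was 14.8 to 24.8 normalized CPM in descending control and 10.8 to 12.1 in descending TGFβ libraries, against 22.3 to 27.1 in ascending control and 15.6 to 17.0 with TGFβ, so that the descending and ascending controls overlapped. The part of such cells in the Foxd3 result was not tested.

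Foxd1, a factor of stromal progenitors, had 56, 39 and 0 counts in descending control and 44, 27 and 44 in descending TGFβ libraries, against 18, 12 and 7 in ascending control and 2, 9 and 11 with TGFβ. Among TGFβ libraries the groups did not overlap and the log2 fold change was -2.40 (SE 0.39, adjusted p = 1.09e-05, edgeR). Among controls it was -1.17 (adjusted p = 0.679), and -1.72 (SE 0.37, adjusted p = 0.00274) without the descending replicate 3. The change of Foxd1 with TGFβ did not pass the test at either site. Foxd2 overlapped between all groups, with 0.615 ± 0.371 to 0.912 ± 0.0400 normalized CPM as group means. Without the descending control replicate 3 the mean of that group was 1.10 ± 0.148 (n = 2) against 0.735 with it, and both libraries lay above the descending TGFβ ones. Foxd2 was called in no comparison with or without that library, its counts being 6 to 31 per library apart from 0 in descending control replicate 3. Its antisense neighbour Foxd2os had 24 to 114 counts, the highest in that same library.

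Foxs1 (chr2:152931898-152933208, 1 exon) had 39.1, 34.5 and 26.98 normalized CPM in descending control and 47.8, 46.1 and 48.1 in descending TGFβ libraries. In ascending libraries it had 21.5, 24.2 and 19.1 in control and 23.6, 25.7 and 25.8 with TGFβ. All descending libraries lay above all ascending ones. The site difference was -0.92 (SE 0.06, adjusted p = 5.34e-13, edgeR) among TGFβ libraries. Among controls it was -0.63 (adjusted p = 0.205), and -0.76 (SE 0.09, adjusted p = 1.87e-05) without the descending replicate 3. Its rise with TGFβ in ascending fibroblasts was the smallest of those called, 0.21 (SE 0.08, adjusted p = 0.0365), and was lost without control replicate 1 or 3 or TGFβ replicate 2 or 3 (adjusted p = 0.0776 to 0.187).

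Foxq1, which represses epithelial adhesion genes, was at 0 in all 3 descending control libraries and had 23, 12 and 16 counts in descending TGFβ libraries, at least 4.16-fold higher against the floor of 3 counts per library. In ascending libraries it had 1, 0 and 0 counts in control and 3, 6 and 2 with TGFβ, a ratio of 11.5 with a 95% counting interval of 1.67 to 495. With TGFβ each descending library had more counts than each ascending one. Foxo6 had 2, 7 and 0 counts in descending control and 16, 26 and 14 in ascending control libraries. The estimated difference was 2.69 on the log2 scale, and 2.23 (SE 0.61) without the descending replicate 3. With TGFβ it had 4 counts in descending and 22 in ascending libraries, a ratio of 5.35 with a counting interval of 1.82 to 21.4. Foxa2, an endoderm factor below the filter, had 13 counts in ascending control libraries and 1 in those with TGFβ, a ratio of 12.4 with an interval of 1.87 to 529.

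Promoter sequences of RefSeq (GRCm38.p6) were looked up for the genes whose paralogs moved together or apart, and 28 of the 44 Fox genes had an entry, 13 of them among the 25 that passed. The 250 bases before a RefSeq start are shown for Foxp1 and Foxp4, which rose together with TGFβ, and for Foxd1 and Foxd3, which differed in opposite directions between the sites. Capitals mark matches to CAGACA or GGCGCC, short forms of sites that Smad proteins bind, searched on both strands. The first of the 3 Foxp1 entries is shown, and it lies within the Foxp1 gene of GENCODE vM21, which reaches 99522721 on that chromosome.
Foxp1, first of 3 entries, chr6:99520994-99521243, minus strand: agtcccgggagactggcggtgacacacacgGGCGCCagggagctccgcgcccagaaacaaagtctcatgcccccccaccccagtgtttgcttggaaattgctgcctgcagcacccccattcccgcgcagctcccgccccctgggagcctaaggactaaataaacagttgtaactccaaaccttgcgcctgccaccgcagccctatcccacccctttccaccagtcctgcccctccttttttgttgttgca
Foxp4, chr17:47924633-47924882, minus strand: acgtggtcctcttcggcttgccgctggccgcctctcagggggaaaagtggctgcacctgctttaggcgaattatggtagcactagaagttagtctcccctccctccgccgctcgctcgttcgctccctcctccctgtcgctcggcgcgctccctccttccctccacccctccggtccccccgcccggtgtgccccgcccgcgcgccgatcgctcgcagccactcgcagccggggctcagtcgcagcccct
Foxd1, chr13:98353995-98354244, plus strand: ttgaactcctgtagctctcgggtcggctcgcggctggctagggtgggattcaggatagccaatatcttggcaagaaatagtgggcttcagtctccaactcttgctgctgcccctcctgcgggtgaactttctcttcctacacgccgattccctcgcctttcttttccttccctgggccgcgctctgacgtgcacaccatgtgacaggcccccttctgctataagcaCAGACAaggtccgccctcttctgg
Foxd3, chr4:99656049-99656298, plus strand: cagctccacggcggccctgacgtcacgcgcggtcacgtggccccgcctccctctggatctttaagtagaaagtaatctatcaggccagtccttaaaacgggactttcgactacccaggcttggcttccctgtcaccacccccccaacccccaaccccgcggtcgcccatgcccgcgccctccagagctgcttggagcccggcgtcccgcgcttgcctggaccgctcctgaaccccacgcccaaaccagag
The Foxp1 window shown holds a GGCGCC that begins 220 bases before its start, the second entry has one at 117 bases and the third has none of these letters. Foxd1 holds a CAGACA that begins 24 bases before the start. Foxp4 and Foxd3 hold neither in these windows. CAGACA was present in 4 of the 33 Fox windows and in 17.1% of all 32851 windows of this length, and GGCGCC in 5 of 33 and in 9.59%. The forkhead core TGTTTAC was found in 1 Fox window, that of Foxa1, and in 3.17% of all windows. These matches are descriptions of letters and do not show binding.

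Foxm1 (chr6:128362967-128376146), the cell cycle factor, fell with TGFβ in descending fibroblasts. It had 23.5, 26.3 and 29.3 normalized CPM in descending control and 15.1, 13.4 and 16.7 in descending TGFβ libraries, against 26.7, 24.1 and 23.1 in ascending control libraries and 25.4, 22.4 and 24.5 in those with TGFβ. The descending TGFβ libraries were lower than all 9 others. The log2 fold change was -0.81 (SE 0.16, adjusted p = 0.037, edgeR) in descending fibroblasts and -0.71 (SE 0.10, adjusted p = 3.57e-07) without replicate 3 of the controls. It ranged from -0.72 to -0.89, with an adjusted p of 0.08 to 0.206, when one of the remaining 5 libraries was dropped. In ascending fibroblasts it was -0.04, with a 95% interval of -0.18 to 0.10. The interaction of site and treatment was 0.77 (SE 0.17, adjusted p = 0.0819), and 0.68 (adjusted p = 0.000304) without that replicate.

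Genes listed as FoxM1 targets, 27 mitotic and replication genes, were all tested. With TGFβ in descending fibroblasts 13 fell and none rose, with a median log2 fold change of -1.19 against 0.02 over all genes, and without replicate 3 of the controls 25 fell and none rose, with a median of -1.16. These are 48.1% and 92.6% called, against 8.07% and 52.9% over all genes. Kif20a, a mitotic kinesin, fell by 1.42 (SE 0.21), Ccna2, the S and G2 phase cyclin, by 1.17 (SE 0.18) and Kif2c by 1.41 (SE 0.22) on the log2 scale. In ascending fibroblasts 14 fell and 1 rose, with a median of -0.25 against 0.00 (-0.00443) over all genes. The 55.6% called was about the 55.8% over all genes, of which 27.6% were lower and 28.2% higher. Cdc25b, a phosphatase that starts mitosis, fell by 0.96 (SE 0.09) and Ccnb2 by 0.64 (SE 0.09) on the log2 scale, and Skp2, a ubiquitin ligase subunit, rose by 0.57 (SE 0.14). Among TGFβ libraries 24 of the 27 were higher in ascending fibroblasts and none lower, with a median of 0.97, or 88.9% called against 36.3% over all genes, of which 18.1% were higher. Top2a, the DNA topoisomerase, was higher by 0.94 (SE 0.07) and Mki67 by 1.01 (SE 0.08). Mki67, the common marker of cycling cells, stood at 65.7 ± 38.1 normalized CPM in descending control and 18.0 ± 2.45 in descending TGFβ libraries, against 41.9 ± 0.686 in ascending control and 36.3 ± 3.05 with TGFβ. Without replicate 3 the descending controls stood at 43.8 ± 5.51 (n = 2). None of the 27 was called by edgeR for the interaction over all libraries (17 at an unadjusted p under 0.05), where 0.806% of all genes were called, and 23 were more positive and 1 more negative in ascending fibroblasts without replicate 3, where 13.5% of all genes were called. Since many of these genes mark dividing cells, fewer cycling cells and less RNA per cycling cell cannot be told apart here.

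**Figure D5:**
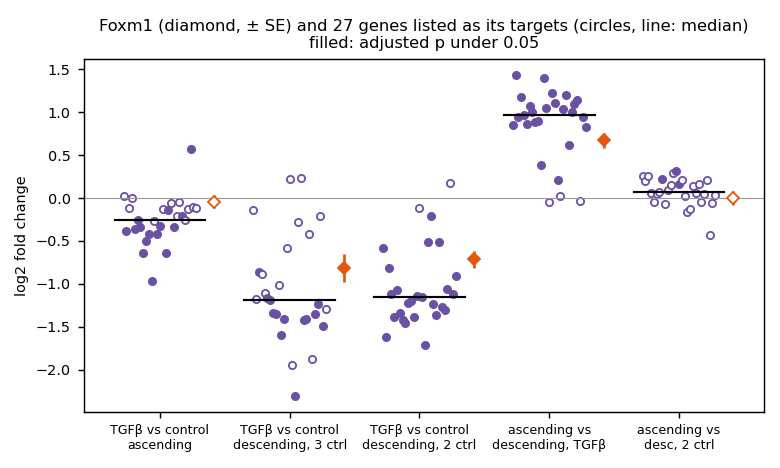
Log2 fold change (y axis) of Foxm1 (diamonds, with standard error) and of the 27 genes listed as its targets (circles; line, median) in 5 fits (x axis; ctrl, number of descending control libraries used); filled symbols had an adjusted p under 0.05. The medians are -0.25 in ascending and -1.19 in descending fibroblasts with TGFβ, and 0.97 between the sites among TGFβ libraries.

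Among 19 listed cofactors of Fox proteins, 6 rose and 5 fell with TGFβ in ascending fibroblasts, with a median log2 fold change of 0.06. The 57.9% called was near the 55.8% over all genes. Runx1 rose by 1.30 (SE 0.10) and the corepressor Tle1 by 0.54 (SE 0.05), and Smad3, the TGFβ signal transducer, fell by 0.82 on the log2 scale (SE 0.05). In descending fibroblasts Nfatc1 rose by 0.72 (SE 0.15) and Smad3 fell by 1.25 on the log2 scale (SE 0.16), the 2 genes called, while without replicate 3 of the controls 5 rose and 5 fell. These are 10.5% and 52.6% called, near the 8.07% and 52.9% over all genes. Between the sites, Smad3 was higher by 0.77 (SE 0.05) and Runx1 by 0.69 (SE 0.09) in ascending TGFβ libraries, where 4 of the 19 were higher and 4 lower, or 42.1% called against 36.3% over all genes.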

How the data were processed

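RNA of 12 cultures was sequenced as paired ends. The authors aligned the reads to mm10 and deposited unnormalized read counts per gene symbol, and the submitters' processing notes name FastQC, STAR, featureCounts and DESeq2 without their roles. Versions, strand setting and the treatment of reads that match several genes are not given in the sources used here. The labels give an age of 14 weeks, and the methods a lower one. The depth was 16250100 to 23892900 counts per library.

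The values are deposited counts, and they were tested with edgeR 4.0.16 in R 4.3.3 (TMM, filterByExpr on the groups compared at its count setting of 10 and total setting of 15, glmQLFit and glmQLFTest, two-sided, Benjamini-Hochberg over all genes tested). Each comparison used its 2 groups, and the interaction all 12 libraries. A gene was called at an adjusted p under 0.05. The SE is the absolute log2 fold change over the square root of F, and 95% intervals are 1.96 SE to each side. A fold against libraries at 0 was computed against 3 counts per library, and ratios of low counts have exact 95% counting intervals. Files of replicates were compared for duplicates, and no pair agreed within sampling noise. Gene models were GENCODE vM21 (GRCm38), which matched all 44 Fox genes and 53753 of 54352 symbols. Figures were drawn with matplotlib 3.10.9. Fox symbols that passed the filter are named, with values for those called, apart from 1 gene, which like the shared stretch of 1 pair of paralogs is not reported here, and for other lists up to 3 genes per direction with the smallest adjusted p; markers and Cdkn1a, Ptch1, Wt1, Mki67 and Sox10 were added after their values were seen. The members and lists were chosen with earlier results of these data known. The alternatives were DESeq2 1.42.0, limma 3.58.1 voom with sample quality weights, DESeq2 size factors, no filter, at least 10 counts in every library, an absolute log2 fold change above 1, a replicate block, one fit over the 12 libraries, and leaving out every library in turn. Simulated data with known changes were used to test the fitting code.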

Additional observations from a re-analysis of the deposited data

Results flagged for a closer look

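Foxp4 was marked because its response to TGFβ differed between the sites by the test of the difference itself. The interaction of site and treatment was -0.83 on the log2 scale (SE 0.11, adjusted p = 0.00927, edgeR), with a rise in 3 of 3 libraries at each site. No test for a library that lies far from its group was run for single Fox genes. In descending control replicate 3, for example, Foxj3 stood at 147 normalized CPM against 42.3 and 46.0 in the other descending controls.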

How the results depend on the processing

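None of the 36 called gene results changed sign. Of their values under the alternatives, 400 kept direction and call and the others kept direction only. With TGFβ in ascending fibroblasts, 17 Fox genes were called (70.8%, all genes 55.8%), and 17 with the replicate block (70.8%, all genes 55.8%). With an absolute log2 fold change above 1 there were 4 (16.7%, all genes 11.5%). With the 12 libraries in one fit there were 3 (12%, all genes 16%), a share below that of all genes. With TGFβ in descending fibroblasts, 4 were called (18.2%, all genes 8.07%), and 15 with limma voom (68.2%, all genes 53.1%). No filter gave 2 (5.88%, all genes 3.45%). The replicate block gave 0 (4 at an unadjusted p under 0.05), with 0.687% over all genes. With each library left out 1 to 15 were called, against 1.49 to 52.9% of all genes. Between sites in control, 1 was called (4.17%, all genes 2.65%), 3 with DESeq2 (12.5%, all genes 6.27%) and 14 with limma voom (58.3%, all genes 31.2%). The replicate block gave 0 (5 at an unadjusted p under 0.05), with 0% over all genes. In one fit 6 were called (24%, all genes 10.6%). With each library left out 0 to 15 were called, against 0.226 to 31.6% of all genes. Between sites in TGFβ, 13 were called (56.5%, all genes 36.3%), 4 above the fold threshold, 6 in one fit and 13 with the replicate block. For the interaction, 1 was called (all genes 0.806%), 2 with DESeq2, 5 with limma voom, 0 above the fold threshold, 1 with the replicate block and 0 to 4 with each library left out. For the interaction and the sites in TGFβ, shares over all genes under the alternatives are not given. Those counts therefore do not set Fox genes apart from other genes. The cause of this dependence on the processing was not tested. Same-numbered deviations correlated between -0.026 and 0.0655, and differently numbered ones between -0.0723 and 0.0371. Between the sites in control the same-numbered values were 0.0607, 0.0306 and 0.0655. With 3 libraries per group these values cannot decide whether same-numbered cultures were paired. Counts of 0 to 56 per library limit Foxd1, Foxd2, Foxd3, Foxo6 and Foxq1.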
